A study of Mus musculus with 6 samples.

Results

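The collagen genes of mouse tibialis anterior muscle were taken from the gene count table as every gene whose GENCODE mouse symbol reads Col, a number, a and a number. A total of 44 genes matched, of 55401 gene identifiers in the table. They were placed in 7 classes by the kind of assembly their chains form, with 11 fibrillar, 8 basement membrane, 6 microfibrillar, 4 junctional, 7 fibril-associated and 4 network-forming or anchoring genes, and 4 that are transmembrane or unclassified. The 6 libraries came from C57BL/6 mice of genotype HSA-MCM-Bmal1-/-, in which a tamoxifen-inducible Cre driven by the human skeletal actin promoter is used to delete the clock gene Bmal1 in skeletal muscle. The mice were male, and tamoxifen was given at 12 to 16 weeks of age, at 2 mg per day for 5 days. AAV was injected into the tibialis anterior 4 weeks later, and the muscle was collected 4 weeks after that. In the AAV-GFP group (n = 3) the vector carried GFP, and in the AAV-RBM20 group (n = 3) it carried mouse Rbm20 cDNA with an HA tag behind a CMV promoter. RBM20 binds RNA and controls how the titin transcript is spliced, and the series asked what restoring it does in muscle without Bmal1. Both groups carried this genotype, and the RBM20 vector was given at the higher dose, so dose and transgene cannot be told apart. The labels do not say whether the muscles came from separate animals, so p-values measure the spread between these libraries only. The lane lists of the study's protein blots hold mice with a GFP muscle marked R and an RBM20 muscle marked L. Whether any of these 6 libraries share an animal in this way is not stated.

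Collagens are built of 3 chains wound into a triple helix, which requires glycine as the first residue of each Gly-X-Y triplet. Fibrillar collagens (types I, III, V, XI and others) are cut free of their propeptides and assemble into the fibrils of the endomysium, perimysium and tendon, and fibril-associated collagens decorate them. Type IV forms the sheet of the basement membrane around muscle fibres and capillaries, with types XV and XVIII beside it, and type VI forms beaded microfibrils between the basement membrane and the interstitium. Types XIII, XIX, XXII and XXV are known from sites where muscle meets nerve or tendon: XIII and XXV are transmembrane collagens with roles at the neuromuscular synapse and in motor innervation, and XXII is a marker of the myotendinous junction. In muscle, interstitial collagen is made mainly by fibroblasts and fibro-adipogenic progenitors.

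The coding sequences show what separates the classes before any expression value is considered. In each gene the longest complete coding sequence of GENCODE M21 (GRCm38) was read codon by codon, and a run was counted wherever a glycine codon, spelled GGN, opened at least 5 codon triplets in a row. The fibrillar genes held 1 main run, with a longest run of 216 to 344 triplets (median 338, 11 genes). Col24a1 (216) and Col27a1 (217) had the shortest fibrillar runs, and the other 9 fibrillar genes lay between 337 and 344. The type IV genes were broken into 22 to 27 runs, of which the longest held 39 to 66 triplets, and Col15a1 and Col18a1 had longest runs of 30 triplets each. The microfibrillar genes had 3 to 5 runs with a longest run of 37 to 87, and only 11.7% to 31.9% of their codons lay within runs. The junctional genes ranged from 40 triplets in Col25a1 to 113 in Col22a1, which equalled the longest run of Col9a1, Col9a2 and Col9a3. One exon of 54 bases, the unit that encodes 6 Gly-X-Y triplets, is printed for 10 genes on which the results turn, to show the repeat that all classes share, 5′ to 3′ on the coding strand, with the first letters GG of the glycine codon that heads each triplet in capitals.
Col1a1, chr11:94939904-94939957, plus strand: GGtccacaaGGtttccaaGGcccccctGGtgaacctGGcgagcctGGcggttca
Col3a1, chr1:45325360-45325413, plus strand: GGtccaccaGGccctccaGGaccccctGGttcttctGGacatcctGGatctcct
Col24a1, chr3:145320661-145320714, plus strand: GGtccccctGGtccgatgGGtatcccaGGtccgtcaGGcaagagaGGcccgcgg
Col4a1, chr8:11245211-11245264, minus strand: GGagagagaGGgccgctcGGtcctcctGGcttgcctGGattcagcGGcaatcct
Col4a5, chrX:141575988-141576041, plus strand: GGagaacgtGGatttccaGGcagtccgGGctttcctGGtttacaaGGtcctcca
Col6a1, chr10:76719623-76719676, minus strand: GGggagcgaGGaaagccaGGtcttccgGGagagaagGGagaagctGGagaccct
Col9a1, chr1:24202014-24202067, plus strand: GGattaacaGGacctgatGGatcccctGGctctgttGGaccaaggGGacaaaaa
Col12a1, chr9:79614349-79614402, minus strand: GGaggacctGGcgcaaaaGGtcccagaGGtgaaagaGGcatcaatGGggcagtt
Col13a1, chr10:61869524-61869577, minus strand: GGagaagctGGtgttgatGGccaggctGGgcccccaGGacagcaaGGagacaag
Col22a1, chr15:71952523-71952576, minus strand: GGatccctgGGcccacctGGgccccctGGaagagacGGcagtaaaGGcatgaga
Each exon was picked as the first of 54 bases with a glycine codon at the head of every codon triplet. The pattern in these 10 was thus fixed by the choice, and they serve as examples only. Exons of 54 bases numbered 21 to 33 in each fibrillar gene and 1 to 3 in each basement membrane gene.

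**Figure D1:**
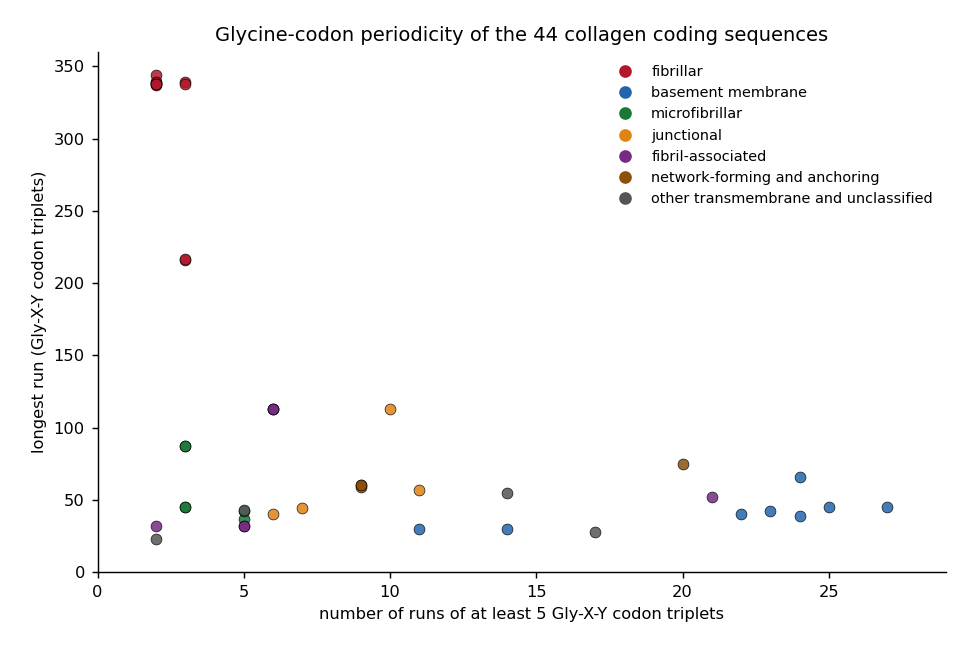
Each point is 1 of the 44 collagen genes, with the number of runs of at least 5 Gly-X-Y codon triplets on the x axis, the longest run in triplets on the y axis and the class as colour. The fibrillar genes sit at 216 to 344 triplets in 2 or 3 runs, while the type IV genes sit at 22 to 27 runs of at most 66 triplets.

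The libraries held 41400132 to 54226618 counts, and the collagen genes together took 0.126% to 0.242% of them. Rbm20 (ENSMUSG00000043639) was read at 170.01, 165 and 164 CPM in AAV-GFP and 499, 545 and 406 CPM in AAV-RBM20, with no overlap between groups (log2 fold change 1.54 ± 0.15 (SE), adjusted p = 0.121, edgeR; 0.0107 with the replicate number as a block). Bmal1, listed under its symbol Arntl, was read at 31.0, 35.99 and 38.1 CPM in AAV-GFP and 24.5, 27.6 and 26.9 CPM in AAV-RBM20, lower in AAV-RBM20 without overlap (log2 fold change -0.41 ± 0.13 (SE), adjusted p = 0.618; unadjusted p = 0.0125, edgeR). Counts over the whole gene do not check the deleted part. Muscle fibre markers summed to 122893 to 137456 CPM in AAV-GFP and 81924 to 127974 CPM in AAV-RBM20, as the tissue label has it, and 2 of the 10, Tnnt3 and Actn3, were lower in AAV-RBM20 at an unadjusted p under 0.05. The libraries numbered 3 stood apart in both groups: titin took 4.48% and 9.05% of their counts against 16.9% to 17.8% in the other 4, and mitochondrial genes took 12.5% and 11.4% against 6.41% to 7.66%. Collagen values are therefore given by library, and the comparison is given with and without the libraries numbered 3.

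Type I, III and IV chains led the family. Levels between genes were compared as CPM per kilobase of merged exon, where CPM is the count relative to library size after scaling by TMM, a normalisation that sets the bulk of genes equal between libraries. Col1a1, an α1 chain of type I, had the highest mean level, at 29.5 ± 8.10 in AAV-GFP and 49.3 ± 16.5 in AAV-RBM20 (CPM per kb, SD, n = 3 each). Col3a1, the chain of the reticular fibres, followed at 25.9 ± 13.4 in AAV-GFP and 37.8 ± 2.22 in AAV-RBM20, and Col4a1 and Col4a2, the basement membrane pair, had levels of 24.6 ± 4.29 in AAV-GFP and 31.3 ± 10.4 in AAV-RBM20, and of 20.8 ± 5.46 in AAV-GFP and 25.1 ± 9.03 in AAV-RBM20. Col1a2 was next (14.7 ± 6.01 in AAV-GFP and 21.1 ± 5.19 in AAV-RBM20). With the longest transcript as the length Col3a1 came first and Col1a2 stood above Col4a1. Col6a1 (12.6 ± 4.46 in AAV-GFP and 13.6 ± 1.34 in AAV-RBM20), Col15a1 (10.05 ± 1.70 in AAV-GFP and 13.4 ± 2.74 in AAV-RBM20), Col6a3 (9.36 ± 2.01 in AAV-GFP and 11.9 ± 1.74 in AAV-RBM20), Col5a3 (7.97 ± 0.180 in AAV-GFP and 9.77 ± 1.85 in AAV-RBM20), Col6a2 (7.57 ± 2.34 in AAV-GFP and 8.08 ± 0.569 in AAV-RBM20) and Col5a1 (6.79 ± 1.23 in AAV-GFP and 8.54 ± 0.362 in AAV-RBM20) came next. Each of these 11 levels lay within 1 SD, the larger of the pair over the 6 libraries, of its neighbour in the order. The step from Col5a1 (7.67 ± 1.26 over 6 libraries) to Col5a2 (4.26 ± 1.00) exceeded both SDs, and the remaining genes were lower still.

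As shares of the summed per-length level of all collagen genes, fibrillar chains took 42.1% to 60.6% in the 6 libraries, basement membrane chains 19.3% to 36.6%, microfibrillar chains 12.4% to 18.6% and junctional chains 0.589% to 2.83%. Of the junctional genes, Col22a1 was the highest (2.27 ± 1.72 in AAV-GFP and 2.44 ± 1.79 in AAV-RBM20) and Col25a1 the lowest (0.0224 ± 0.0120 in AAV-GFP and 0.0295 ± 0.00666 in AAV-RBM20). The cartilage collagen Col2a1 and the growth plate collagen Col10a1 were near absent, with 62 and 2 counts over all 6 libraries. Col2a1, Col4a6, Col6a4, Col9a2 and Col10a1 did not pass the filter on low counts and were not tested, which left 39 of 44 genes. Of these, 35 exceeded the minimum of the filter, 0.225 CPM, in all 6 libraries, and 3 exceeded it in every AAV-RBM20 library but not in every AAV-GFP library (Col6a5, Col9a3 and Col25a1). Annotated exons of 13 of the 44 genes overlap another gene, by at most 563 bases, and the strand setting of the counting is not given, so reads in those stretches are uncertain.

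**Figure D2:**
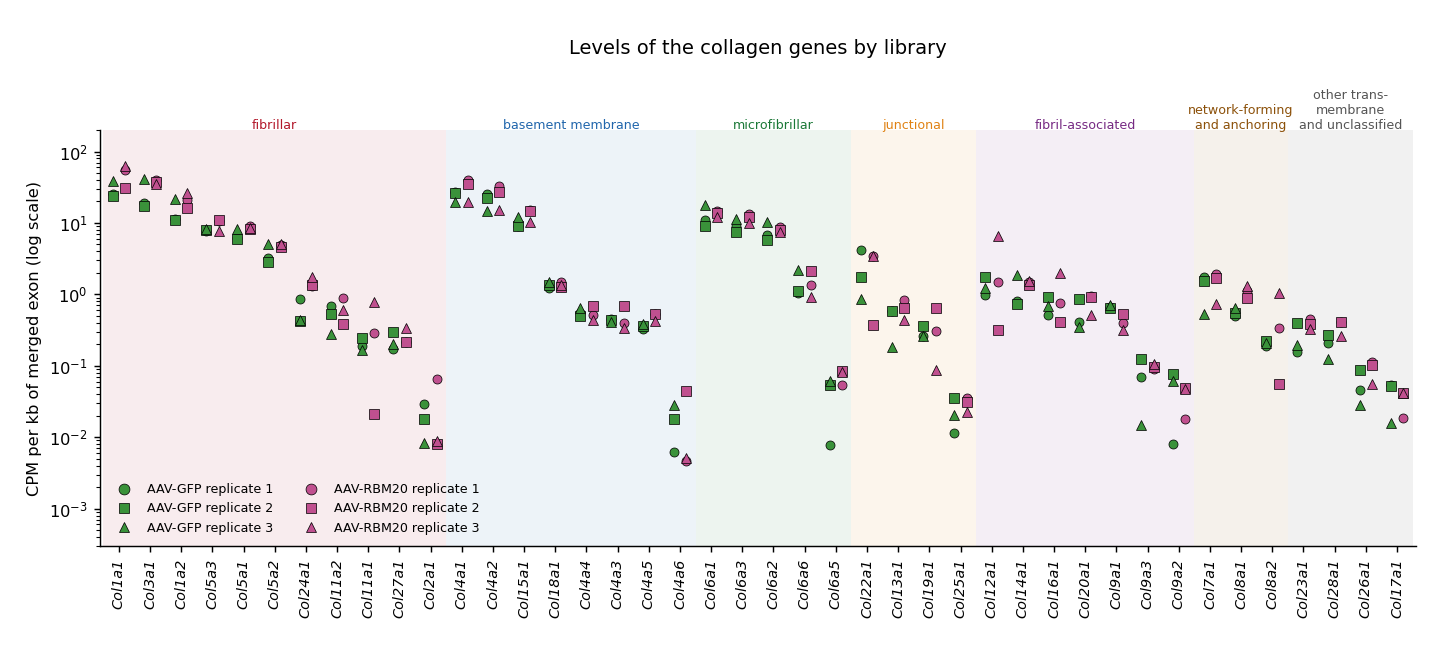
The y axis gives CPM per kb of merged exon on a log scale for the 42 collagen genes with a count in every library, grouped by class and ordered by mean, and each point is 1 library. Levels span from Col1a1 at 24.2 to 62.8 down to genes under 0.1, and the 2 groups overlap for most genes.

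The ratio between chains that share a molecule was taken in each library. The α1 and α2 chains of type I are combined 2 to 1 in the protein, and the per-length ratio of Col1a1 to Col1a2 was 2.24, 2.18 and 1.79 with AAV-GFP and 2.58, 1.93 and 2.38 with AAV-RBM20. The ratio depended on the length taken, with a mean of 2.18 by merged exons and 1.04 by the longest transcript, since Col1a2 has 12426 bases of merged exon and a longest transcript of 5348. The ratio of Col4a1 to Col4a2 was 1.09, 1.17 and 1.34 with AAV-GFP and 1.21, 1.27 and 1.30 with AAV-RBM20, and that of Col6a1 to Col6a2 1.63, 1.59 and 1.72 with AAV-GFP and 1.70, 1.73 and 1.61 with AAV-RBM20. The log2 ratios differed between groups by 0.15, 0.074 and 0.033 for the 3 pairs, with exact two-sided permutation p of 0.4, 0.5 and 0.6, each 0.6 after adjustment over the 3, where 0.1 is the smallest p that 3 against 3 allows, so these tests could not reach 0.05. The type IV pair stayed between 1.09 and 1.34 to each other in all 6 libraries.

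The Col4a3 to Col4a4 ratio, minor type IV chains, was 0.825, 0.884 and 0.642 with AAV-GFP and 0.773, 1.00 and 0.773 with AAV-RBM20. Their starts lie head to head on chromosome 1, and the 71 bases between them (chr1:82586850-82586920, GRCm38, plus strand) are shown because both genes start from this strip.
Col4a3 and Col4a4 strip: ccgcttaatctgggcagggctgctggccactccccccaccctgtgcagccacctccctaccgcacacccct
It holds 69.0% G and C and no match on either strand to the motifs that were searched, which are TATAAA and CCAAT, the GC box GGGCGG, the E-box CACGTG and its general form CANNTG. Col4a1 and Col4a2 also start head to head, with an overlap of 22 bases on chromosome 8, where reads are likewise uncertain. The ratio of Col6a3 to Col6a1 was 0.827, 0.822 and 0.654 with AAV-GFP and 0.910, 0.873 and 0.823 with AAV-RBM20, and that of Col5a1 to Col5a2 1.92, 2.16 and 1.63 with AAV-GFP and 1.81, 1.80 and 1.69 with AAV-RBM20. For Col8a1 to Col8a2 the ratio was 2.55, 2.54 and 3.10 with AAV-GFP and 3.20, 16.0 and 1.28 with AAV-RBM20, and AAV-RBM20 replicate 2 stood far above the other libraries. Col4a6 and Col9a2 had at most 38 counts in all, too few for a usable ratio with Col4a5 and Col9a1.

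No collagen gene passed the adjusted threshold of 0.05 between AAV-RBM20 and AAV-GFP, and most members had higher means in AAV-RBM20. In edgeR's quasi-likelihood test, adjusted over 17222 genes by the Benjamini-Hochberg method, 0 of 39 collagen genes passed, against 0.00% of all genes tested, and the lowest adjusted p of a member was 0.549 (Col8a1). The delivered gene Rbm20 passed in DESeq2 (adjusted p = 1.38e-17) but not in this edgeR fit (adjusted p = 0.121), so not passing here does not show that a gene was unchanged. At an unadjusted p under 0.05, 5 members were higher, 12.8% of 39, against 4.08% of all genes: Col8a1, Col24a1, Col1a1, Col4a5 and Col28a1. One member, Col9a1, was lower (2.56%, against 3.82% of all genes). Blocking on the replicate number gave 11 higher and 1 lower, against 8.92% and 9.92% of all genes, and still no member passed after adjustment, while 25 genes of the whole table (0.145%) did. The 6 members at an unadjusted p under 0.05 numbered 14 of 40 when AAV-GFP replicate 3 was left out (35.0%, against 11.4% of all genes), 3 of 40 when AAV-GFP replicate 1 was (against 5.99% of all genes) and 2 of 40 when AAV-RBM20 replicate 1 was (5.00%, against 3.82%).

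The groups did not overlap in 4 members. AAV-RBM20 lay above AAV-GFP for Col8a1, Col24a1 and Col4a5 (7.69% of members, against 7.71% of all genes) and below it for Col9a1 (2.56%, against 9.04%), so such separation was not more frequent than in the table at large. The log2 fold change was above 0 for 35 of 39 members (89.7%, against 51.3% of all genes), with a median of 0.39 over the members and 0.009 over all genes. The 39 members share the same 6 libraries, so they are not independent counts of one direction. Col6a5, Col9a3 and Col25a1 are among the 35. They exceeded the filter minimum in every AAV-RBM20 library but not in every AAV-GFP library, which favours a value above 0. The class medians were 0.46 for 10 fibrillar genes, 0.27 for 7 basement membrane genes, 0.12 for 5 microfibrillar genes and 0.32 for 4 junctional genes. Col6a5 enters the microfibrillar median and Col25a1 the junctional median.

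The excess of higher values differed between the replicate numbers. Of the 39 members, 34 were higher in AAV-RBM20 in number 1, 26 in number 2 and 25 in number 3, against 51.2%, 49.9% and 49.8% of all genes, and 14 were higher in all 3 (35.9%, against 22.2%). For the fibrillar genes the median log2 difference was alike in the 3 numbers, at 0.54, 0.45 and 0.47. The microfibrillar genes had medians of 0.43 and 0.60 in numbers 1 and 2 and of -0.44 in number 3, and the basement membrane genes 0.38, 0.45 and -0.14. Those of the junctional genes were 0.32, 0.021 and 0.47. The fit without both libraries numbered 3 compared 2 libraries with 2, and these were the most alike within each group. Their chi-square per degree of freedom was 15.1 in AAV-GFP and 24.9 in AAV-RBM20, against 223 to 545 for pairs with a number 3. In this fit 12 of 40 collagen genes passed the adjusted threshold in edgeR (30.0%, against 1.95% of all genes in that direction), all of them higher in AAV-RBM20. They were Col1a2, Col3a1, Col5a1, Col5a2 and Col5a3, Col4a1 and Col15a1, Col6a1, Col6a2 and Col6a3, Col8a1 and Col14a1. DESeq2 on all 6 libraries called 2 members, Col8a1 and Col24a1 (5.13%, against 0.209% of all genes in that direction), and DESeq2 with the replicate block called 4, adding Col1a1 and Col1a2 (10.3%, against 1.06%).

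**Figure D3:**
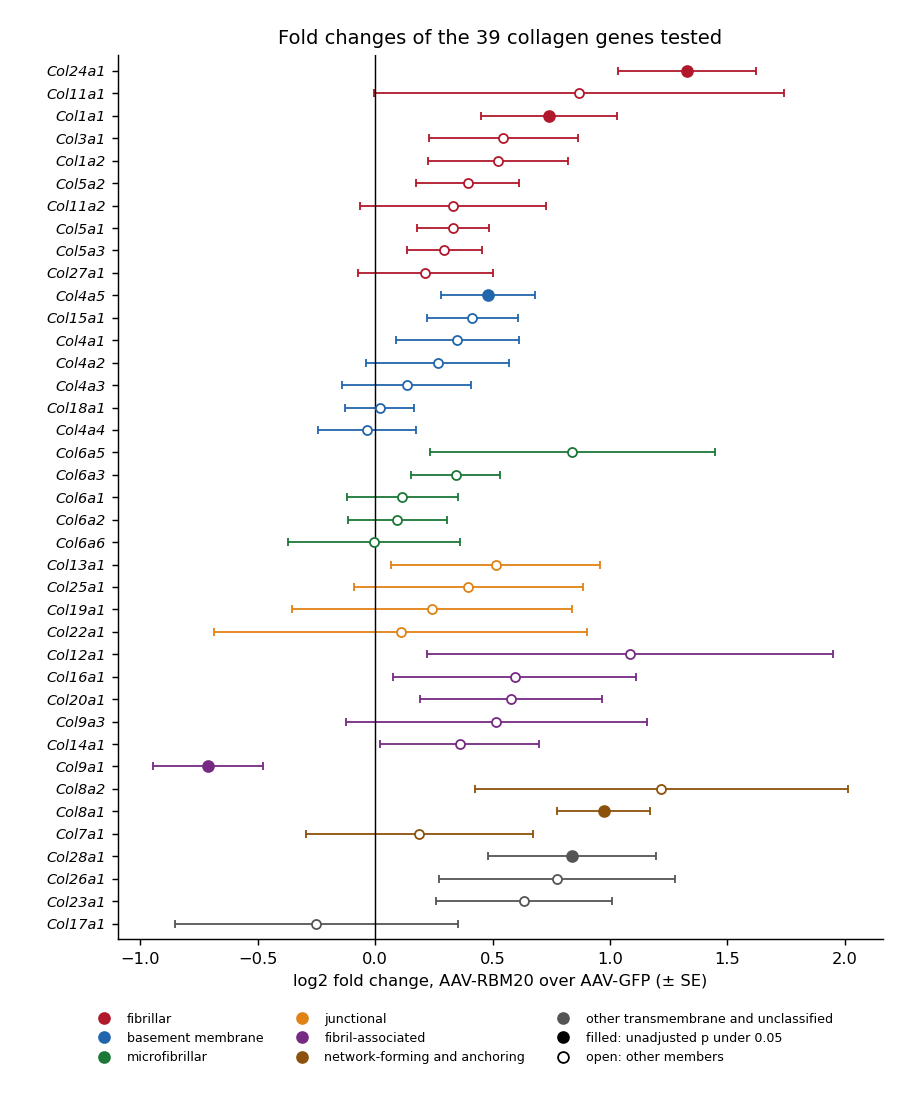
Points give the log2 fold change of AAV-RBM20 over AAV-GFP for the 39 collagen genes tested, with bars for the SE of the edgeR fit (n = 3 each), colour for the class and filled symbols for an unadjusted p under 0.05. A total of 35 points lie right of 0, and Col9a1 lies farthest to the left at -0.71.

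In the fibrillar class all 10 tested genes had a higher mean in AAV-RBM20, and 2 reached an unadjusted p under 0.05. Col24a1 (ENSMUSG00000028197, chr3:145292472-145552011, GRCm38, plus strand), a fibrillar chain best known from developing bone, was read at 6.67, 3.26 and 3.34 CPM in AAV-GFP and 9.92, 10.2 and 13.2 CPM in AAV-RBM20. The lowest AAV-RBM20 library lay above the highest AAV-GFP library, a 2.51-fold ratio of means (log2 fold change 1.33 ± 0.29 (SE), adjusted p = 0.573). Its adjusted p was 0.0107 in DESeq2 and 2.09e-05 in DESeq2 with the replicate block, but 0.0959 in edgeR with the block. Without both libraries numbered 3 the log2 fold change was 1.03 (adjusted p = 0.264, edgeR). The log2 fold change stayed between 1.15 and 1.74 when each library was left out. Col1a1 (ENSMUSG00000001506, chr11:94936224-94953042, GRCm38, plus strand), the main chain of fibrils in tendon and fascia, was read at 167, 159 and 255 CPM in AAV-GFP and 356, 203 and 412 CPM in AAV-RBM20. AAV-RBM20 replicate 2 fell within the AAV-GFP range while the other 2 lay above it (log2 fold change 0.74 ± 0.29 (SE), adjusted p = 0.618).

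Its partner Col1a2 was read at 141, 138 and 269 CPM in AAV-GFP and 261, 199 and 328 CPM in AAV-RBM20, and AAV-GFP replicate 3 exceeded 2 of the AAV-RBM20 libraries (log2 fold change 0.52 ± 0.30 (SE), adjusted p = 0.657). Under DESeq2 with the replicate block both type I chains passed, with adjusted p of 0.000177 for Col1a1 and 0.00282 for Col1a2, against 0.0950 and 0.111 in edgeR with the block and 0.469 and 0.0475 in edgeR without both libraries numbered 3. Col3a1, which copolymerises with type I, was read at 188, 168 and 406 CPM in AAV-GFP and 393, 371 and 349 CPM in AAV-RBM20. AAV-GFP replicate 3 was the highest of all 6 libraries, and the other 2 AAV-GFP libraries were the lowest (log2 fold change 0.55 ± 0.32 (SE), adjusted p = 0.658). Without both libraries numbered 3 the log2 fold change of Col3a1 was 1.11, with an edgeR adjusted p of 5.19e-05.

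The type V chains nucleate type I fibrils. Col5a1 was read at 51.9, 51.4 and 69.7 CPM in AAV-GFP and 75.7, 69.6 and 72.3 CPM in AAV-RBM20, and Col5a2 at 30.6, 26.9 and 48.5 CPM in AAV-GFP and 47.3, 43.7 and 48.2 CPM in AAV-RBM20. Col5a3 was read at 52.9, 54.7 and 55.3 CPM in AAV-GFP and 72.3, 75.2 and 52.1 CPM in AAV-RBM20. For Col5a1 and Col5a2 AAV-GFP replicate 3 reached the AAV-RBM20 range, while for Col5a3 it was AAV-RBM20 replicate 3 that fell below all other libraries. Their log2 fold changes were 0.33 ± 0.15, 0.39 ± 0.22 and 0.29 ± 0.16 (SE), with adjusted p of 0.641, 0.657 and 0.657 in edgeR. Of the other tested fibrillar genes, Col11a1, Col11a2 and Col27a1 had log2 fold changes of 0.87 ± 0.87, 0.33 ± 0.40 and 0.21 ± 0.29, and each turned negative when 1 library was left out, with lowest values of -0.34, -0.015 and -0.037.

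**Figure D4:**
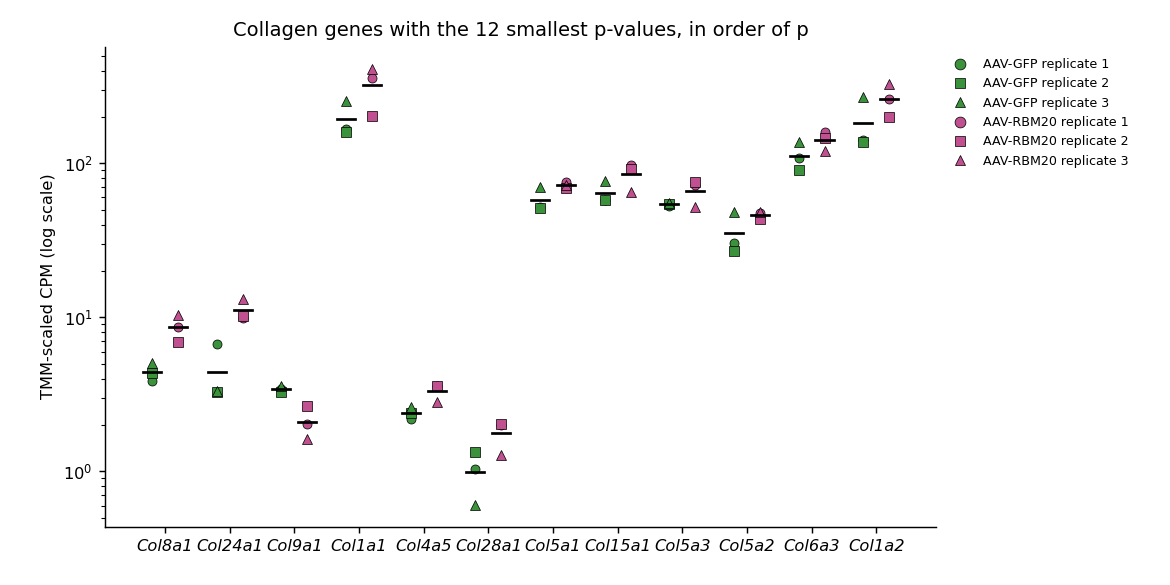
The 12 collagen genes with the smallest p-values of the edgeR fit are shown from left to right in order of p, with TMM-scaled CPM on a log scale, 1 point per library and a black bar for each group mean (n = 3). Groups do not overlap for Col8a1, Col24a1, Col9a1 and Col4a5, and they overlap for the other 8.

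Col8a1 (ENSMUSG00000068196, chr16:57624258-57754737, GRCm38, minus strand) had the smallest p of all members. It encodes a short-chain collagen of vessel walls and of Descemet's membrane that forms hexagonal lattices, and it was read at 3.84, 4.36 and 5.03 CPM in AAV-GFP and 8.60, 6.97 and 10.4 CPM in AAV-RBM20. Every AAV-RBM20 library lay above every AAV-GFP library, a 1.96-fold ratio of means (log2 fold change 0.97 ± 0.20 (SE), adjusted p = 0.549; unadjusted p = 0.00115, edgeR). The exact two-sided permutation p was 0.1, the smallest possible here. The log2 fold change stayed between 0.83 and 1.10 as each library was left out, and the adjusted p was 0.00931 in DESeq2, 0.00906 in edgeR without both libraries numbered 3 and 0.0680 with the replicate block. The 250 bases before its RefSeq start site (chr16:57754738-57754987, GRCm38, minus strand) are shown because Col8a1 led the comparison, 5′ to 3′, with matches to GGGCGG, here on the opposite strand as CCGCCC, in capitals.
Col8a1 upstream: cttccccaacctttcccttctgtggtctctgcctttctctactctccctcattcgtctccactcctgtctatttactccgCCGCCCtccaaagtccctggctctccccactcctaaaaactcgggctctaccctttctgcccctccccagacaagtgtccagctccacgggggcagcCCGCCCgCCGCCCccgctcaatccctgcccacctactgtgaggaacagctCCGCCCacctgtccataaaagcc
The window held 4 such matches, and 2 to CANNTG. Over collagen genes, 57.9% of 38 start windows from 35 genes held GGGCGG on either strand, against 32.7% of 32851 windows of all genes of equal length, and TATAAA was in 13.2% against 12.4%, CCAAT in 34.2% against 33.8%, CACGTG in 0% against 6.02% and CANNTG, which includes CACGTG, in 19 of 38 against 66.2%. A match describes letters only.

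The other genes of that class varied more. Col8a2, the partner chain, was read at 0.861, 0.982 and 0.931 CPM in AAV-GFP and 1.54, 0.249 and 4.65 CPM in AAV-RBM20. Its AAV-GFP libraries were close together, and the AAV-RBM20 libraries spanned the lowest and the highest value (log2 fold change 1.22 ± 0.79 (SE), adjusted p = 0.678), with a log2 fold change of -0.014 without AAV-RBM20 replicate 3. Col7a1, the anchoring fibril collagen, was read at 18.3, 16.1 and 5.40 CPM in AAV-GFP and 20.1, 17.5 and 7.52 CPM in AAV-RBM20, with the libraries numbered 3 lowest in both groups (log2 fold change 0.19 ± 0.48 (SE), adjusted p = 0.924).

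In the basement membrane class the groups overlapped for 6 of 7 tested genes. Col4a1 was read at 205, 198 and 147 CPM in AAV-GFP and 295, 259 and 147 CPM in AAV-RBM20, and Col4a2 at 167, 149.9 and 97.3 CPM in AAV-GFP and 217, 181 and 100.01 CPM in AAV-RBM20. In numbers 1 and 2 AAV-RBM20 was higher for both chains, whereas the libraries numbered 3 were the lowest of each group and nearly equal. The log2 fold changes were 0.35 ± 0.26 and 0.27 ± 0.30 (SE), with edgeR adjusted p of 0.709 and 0.804, and without both libraries numbered 3 that of Col4a1 was 0.47 with an adjusted p of 0.00764. Col4a5, an α chain of specialised basement membranes, was read at 2.19, 2.40 and 2.60 CPM in AAV-GFP and 3.59, 3.61 and 2.84 CPM in AAV-RBM20. The groups did not overlap, with 805 counts in all (log2 fold change 0.48 ± 0.20 (SE), adjusted p = 0.618).

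Col4a3 was read at 4.58, 4.34 and 4.07 CPM in AAV-GFP and 3.98, 6.92 and 3.38 CPM in AAV-RBM20 and Col4a4 at 5.90, 5.22 and 6.74 CPM in AAV-GFP and 5.48, 7.34 and 4.65 CPM in AAV-RBM20. Both were highest in AAV-RBM20 replicate 2 and lowest in AAV-RBM20 replicate 3 (log2 fold change 0.13 ± 0.27 (SE), adjusted p = 0.896 for Col4a3 and log2 fold change -0.035 ± 0.21 (SE), adjusted p = 0.969 for Col4a4). Col15a1, a basement membrane proteoglycan whose loss weakens muscle and capillaries, was read at 57.4, 57.8 and 76.2 CPM in AAV-GFP and 97.5, 92.3 and 65.0 CPM in AAV-RBM20. Its AAV-RBM20 replicate 3 was below AAV-GFP replicate 3 (log2 fold change 0.41 ± 0.19 (SE), adjusted p = 0.641), and without both libraries numbered 3 its log2 fold change was 0.73 (adjusted p = 0.000243, edgeR). Col18a1, the precursor of endostatin, had a log2 fold change of 0.019 ± 0.15, with all 6 libraries between 8.49 and 10.6 CPM. Col4a6 (38 counts in all) was not tested.

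The microfibrillar class had the smallest median difference of the 4 classes compared, and it was -0.069 without AAV-GFP replicate 2 and 0.64 without both libraries numbered 3. Col6a1 was read at 47.6, 40.2 and 77.2 CPM in AAV-GFP and 64.5, 61.2 and 53.1 CPM in AAV-RBM20, Col6a2 at 55.7, 48.2 and 85.1 CPM in AAV-GFP and 72.1, 67.2 and 62.6 CPM in AAV-RBM20, and both chains were highest in AAV-GFP replicate 3 and lowest in AAV-GFP replicate 2. Col6a3, the long chain that carries the endotrophin domain, was read at 108, 90.3 and 138 CPM in AAV-GFP and 160.4, 146 and 119 CPM in AAV-RBM20. The log2 fold changes were 0.12 ± 0.24, 0.094 ± 0.21 and 0.34 ± 0.19 (SE), with adjusted p of 0.897, 0.907 and 0.657 in edgeR. Without AAV-GFP replicate 2 the values of Col6a1 and Col6a2 were -0.070 and -0.069. Without both libraries numbered 3 the 3 values were 0.53, 0.43 and 0.64, each past the adjusted threshold. Of the newer α chains, Col6a5 and Col6a6 had log2 fold changes of 0.84 ± 0.61 and -0.0056 ± 0.37, and Col6a4 was not tested with 17 counts.

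None of the 4 junctional collagens reached an unadjusted p under 0.05, and the log2 fold changes of Col13a1, Col19a1 and Col22a1 were smaller than their SD within groups on the log2 scale. With the replicate block Col13a1 had an unadjusted p of 0.0439 (adjusted p = 0.254, edgeR). Col13a1, a transmembrane collagen of the neuromuscular synapse, was read at 2.71, 2.71 and 0.855 CPM in AAV-GFP and 3.85, 3.01 and 2.04 CPM in AAV-RBM20. It was higher in AAV-RBM20 in each of the 3 numbers and lowest in the library numbered 3 of each group (log2 fold change 0.51 ± 0.45 (SE), adjusted p = 0.742). Col19a1, a minor collagen expressed in differentiating muscle, was read at 1.80, 2.52 and 1.79 CPM in AAV-GFP and 2.14, 4.503 and 0.597 CPM in AAV-RBM20. AAV-RBM20 libraries gave both its highest and its lowest value (log2 fold change 0.24 ± 0.60 (SE), adjusted p = 0.918).

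Col22a1, the collagen of the myotendinous junction, was read at 38.5, 16.3 and 7.81 CPM in AAV-GFP and 32.0, 3.43 and 31.9 CPM in AAV-RBM20. Its libraries ranged over a factor of 9.32 within AAV-RBM20 alone (log2 fold change 0.11 ± 0.79 (SE), adjusted p = 0.975), with a log2 fold change of -0.60 without both libraries numbered 3. Col25a1, a transmembrane collagen needed for motor innervation, was read at 0.148, 0.455 and 0.266 CPM in AAV-GFP and 0.458, 0.398 and 0.288 CPM in AAV-RBM20, 94 counts in all (log2 fold change 0.40 ± 0.49 (SE), adjusted p = 0.821). The median SD within groups was 0.686 on the log2 scale for the 4 genes, against 0.433 for the fibrillar genes and 0.226 over all genes tested. Among 9 markers of the neuromuscular synapse none reached an unadjusted p under 0.05 (median log2 fold change 0.34, summed level 134 to 185 CPM in AAV-GFP and 128 to 231 CPM in AAV-RBM20). Of 8 tested genes of the denervation response 4 did (Myog, Ncam1, Runx1 and Myh3), all higher, against 4.08% of all genes. The median log2 fold change of the 8 was 0.48, and 2 were below 0, the lowest Musk at -0.39. The list summed to 50.5 to 63.2 CPM in AAV-GFP and 57.2 to 75.4 CPM in AAV-RBM20. With the replicate block 4 were higher and 1 lower at an unadjusted p under 0.05, against 8.92% and 9.92% of all genes. Runx1 passed after adjustment with the block (adjusted p = 0.0271, against 0.257 without it, edgeR). The part of these markers in the collagen values was not tested.

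Col9a1 (ENSMUSG00000026147, chr1:24177610-24252684, GRCm38, plus strand) was the 1 member with a lower value at an unadjusted p under 0.05. It encodes a chain of type IX, which coats cartilage fibrils, and was read at 3.42, 3.28 and 3.61 CPM in AAV-GFP and 2.02, 2.66 and 1.63 CPM in AAV-RBM20. Every AAV-RBM20 library lay below every AAV-GFP library (log2 fold change -0.71 ± 0.23 (SE), adjusted p = 0.618), and the log2 fold change stayed between -0.92 and -0.55 as each library was left out. Its partner Col9a2 was read at 0.0246, 0.240 and 0.190 CPM in AAV-GFP and 0.0550, 0.149 and 0.144 CPM in AAV-RBM20 and was not tested, and Col9a3 had a log2 fold change of 0.52 ± 0.64.

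Of the collagens that bind fibrils, Col12a1, found in tendon and fascia, was read at 15.0, 26.7 and 18.6 CPM in AAV-GFP and 22.4, 4.78 and 101 CPM in AAV-RBM20. The AAV-RBM20 libraries spanned a factor of 21.1, from the lowest to the highest of all 6 (log2 fold change 1.09 ± 0.87 (SE), adjusted p = 0.726), and the log2 fold change was -0.55 without AAV-RBM20 replicate 3. Col14a1, an interstitial collagen of fibroblasts, was read at 5.71, 5.10 and 13.1 CPM in AAV-GFP and 10.6, 9.43 and 10.8 CPM in AAV-RBM20. Like Col3a1 it was highest in AAV-GFP replicate 3 (log2 fold change 0.36 ± 0.34 (SE), adjusted p = 0.758), and without both libraries numbered 3 the log2 fold change was 0.90 (adjusted p = 0.00539, edgeR). Col16a1 and Col20a1 had log2 fold changes of 0.59 ± 0.52 and 0.58 ± 0.39.

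In the last class, Col28a1, a type VI-like collagen linked to peripheral nerve, was read at 1.03, 1.34 and 0.608 CPM in AAV-GFP and 2.00, 2.04 and 1.28 CPM in AAV-RBM20. The groups overlapped by 1 library, AAV-RBM20 replicate 3 (log2 fold change 0.84 ± 0.36 (SE), adjusted p = 0.629; unadjusted p = 0.0483). Col23a1, a transmembrane collagen, was read at 0.886, 2.28 and 1.12 CPM in AAV-GFP and 2.57, 2.21 and 1.85 CPM in AAV-RBM20 (log2 fold change 0.63 ± 0.37 (SE), adjusted p = 0.659). Col17a1 and Col26a1 had log2 fold changes of -0.25 ± 0.60 and 0.77 ± 0.50. Of 6 Schwann cell markers none reached an unadjusted p under 0.05, with a median log2 fold change of 0.04 (summed level 14.3 to 41.2 CPM in AAV-GFP and 18.1 to 32.6 CPM in AAV-RBM20).

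Library by library, some collagen genes were extreme in the same libraries as markers of other cell types. In bulk muscle, fewer cells of a type and less RNA per cell cannot be told apart. Col8a2, Col11a1, Col12a1 and Col16a1 had their lowest value in AAV-RBM20 replicate 2 and their highest in AAV-RBM20 replicate 3 (4 of 39 members, 10.3%, against 2.08% of all genes), and so did 5 of 7 tendon markers (Fmod, Kera, Mkx, Thbs4 and Tnmd). Fmod, a tendon proteoglycan, was read at 39.4, 18.2 and 29.6 CPM in AAV-GFP and 52.2, 2.46 and 83.5 CPM in AAV-RBM20, and Tnmd, the tenocyte marker tenomodulin, at 1.40, 0.982 and 1.54 CPM in AAV-GFP and 2.16, 0.274 and 4.37 CPM in AAV-RBM20. Summed, the tendon markers reached 89.9 to 133 CPM in AAV-GFP and 42.1 to 223 CPM in AAV-RBM20, so that the AAV-RBM20 range enclosed the AAV-GFP range.

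Lowest in the library numbered 3 of both groups were 9 of 39 members (23.1%, against 26.2% of all genes): Col4a1, Col4a2, Col4a3, Col7a1, Col13a1, Col19a1, Col20a1, Col26a1 and Col28a1. The same held for 6 of 8 endothelial, 4 of 6 pericyte and 2 of 6 Schwann cell markers. It also held for 3 of 9 synapse, 3 of 10 muscle fibre and 1 of 8 tested denervation markers, and for none in the other lists. Cdh5, the cadherin of endothelial junctions, was read at 108, 113 and 42.9 CPM in AAV-GFP and 122, 106 and 68.9 CPM in AAV-RBM20, and the 8 endothelial markers summed to 204 to 470.3 CPM in AAV-GFP and 319 to 450.5 CPM in AAV-RBM20. Highest in the library numbered 3 of both groups were 5 of 39 members (12.8%, against 28.5% of all genes): Col1a1, Col1a2, Col5a2, Col8a1 and Col14a1. Neither share of members exceeded that of all genes. Also highest in both were 6 of 10 fibroblast, 9 of 9 macrophage, 4 of 5 tested adipocyte, 3 of 7 tendon and 1 of 6 pericyte markers. Dcn, the fibroblast proteoglycan decorin, was read at 126, 119 and 280.5 CPM in AAV-GFP and 174, 193 and 243 CPM in AAV-RBM20, which like Col3a1 was highest in AAV-GFP replicate 3.

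The 10 fibroblast markers summed to 236 to 491 CPM in AAV-GFP and 346 to 436 CPM in AAV-RBM20, with 0 at an unadjusted p under 0.05 and a median log2 fold change of 0.23. Without both libraries numbered 3, 6 of the 10 passed the adjusted threshold, all higher, against 1.95% of all genes in that direction. The median of the 10 was 0.61, beside 0.67 for the fibrillar genes in the same fit. The 9 macrophage markers summed to 26.3 to 76.1 CPM in AAV-GFP and 49.98 to 124 CPM in AAV-RBM20. Their median log2 fold change was 0.82, and Ptprc and Itgam were higher at an unadjusted p under 0.05, against 4.08% of all genes. Ptprc and Ctss passed with the replicate block (adjusted p = 0.0478 and 0.0251, edgeR). In that fit all 9 were higher at an unadjusted p under 0.05, against 8.92% of all genes. Without both libraries numbered 3, 8 of the 9 passed the adjusted threshold, all higher, against 1.95% of all genes in that direction. The median of the 9 was 1.10. Pericyte markers (896 to 1033 CPM in AAV-GFP and 903 to 970.3 CPM in AAV-RBM20) and adipocyte markers (62.4 to 80.2 CPM in AAV-GFP and 58.5 to 78.4 CPM in AAV-RBM20) had medians of -0.039 and -0.47, with none at an unadjusted p under 0.05. The adipocyte markers Adipoq, Cidec and Lep were at 0 in 1 or 2 libraries each, and no marker of the other cell types was at 0 in any library. The part of any of them in the collagen values was not tested.

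**Figure D5:**
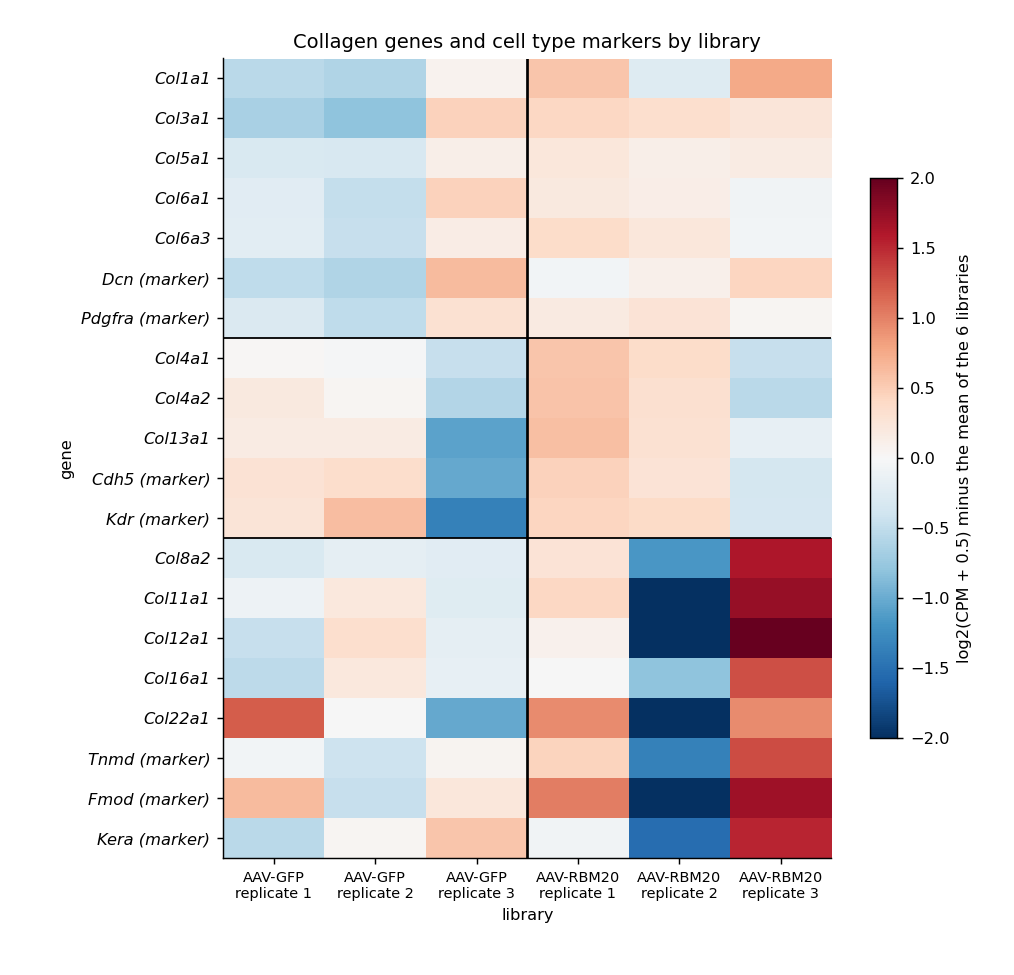
Colour gives log2(CPM + 0.5) of each gene minus its mean over the 6 libraries, for 13 collagen genes and 7 cell type markers picked after their values were seen, with genes as rows and libraries as columns and the scale ending at 2 in either direction. The genes of the lower block, Col22a1 apart, are bluest in AAV-RBM20 replicate 2 and reddest in AAV-RBM20 replicate 3, and those of the middle block are blue in both libraries numbered 3.

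Summed over all 44 genes, collagen CPM was 1419, 1323 and 1845 with AAV-GFP and 2291, 1898 and 2062 with AAV-RBM20. The groups did not overlap on this scale. As a share of all counts without TMM scaling, AAV-GFP replicate 3 (0.187%) exceeded AAV-RBM20 replicate 2 (0.184%). The sum was carried by few genes, since 6 genes had a mean of at least 100 CPM.

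Genes that fold, trim, break down and sense collagen were compared in the same fit. In edgeR with all 6 libraries no gene of the 4 lists passed the adjusted threshold. At an unadjusted p under 0.05 their counts stand beside 4.08% of all genes higher and 3.82% lower. Genes whose groups did not overlap stand beside 7.71% of all genes with AAV-RBM20 above and 9.04% with it below. Of 20 genes for folding and modification in the endoplasmic reticulum, none was higher and 1 lower at an unadjusted p under 0.05, with a median log2 fold change of 0.10. The lower one was Mia3, which loads procollagen into its carriers, at 167, 161 and 149.9 CPM in AAV-GFP and 127, 126 and 119 CPM in AAV-RBM20 (log2 fold change -0.36 ± 0.12 (SE), adjusted p = 0.618). Plod2, a lysyl hydroxylase, was read at 2.14, 3.40 and 3.32 CPM in AAV-GFP and 3.63, 3.63 and 6.07 CPM in AAV-RBM20, and Crtap, a partner of prolyl 3-hydroxylase, at 3.52, 3.52 and 3.86 CPM in AAV-GFP and 4.82, 4.13 and 4.76 CPM in AAV-RBM20. Both were higher in all AAV-RBM20 libraries than in any AAV-GFP library (adjusted p = 0.641 and 0.649, edgeR). Of the 20 genes, these 2 lay above without overlap and 2 lay below, Mia3 among the latter. The collagen chaperone Serpinh1 was read at 26.9, 31.5 and 38.9 CPM in AAV-GFP and 37.8, 37.2 and 38.1 CPM in AAV-RBM20 (log2 fold change 0.21 ± 0.15 (SE), adjusted p = 0.699).

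Of 13 genes for propeptide cleavage and cross-linking, 1 was higher and none lower at an unadjusted p under 0.05, with a median of 0.17. This was Adamts14, a procollagen N-proteinase, at 1.67, 1.73 and 1.41 CPM in AAV-GFP and 2.71, 2.31 and 3.09 CPM in AAV-RBM20 (log2 fold change 0.76 ± 0.23 (SE), adjusted p = 0.618). The cross-linking enzyme Loxl2 was read at 10.1, 6.06 and 11.8 CPM in AAV-GFP and 13.8, 10.5 and 13.5 CPM in AAV-RBM20 (log2 fold change 0.43 ± 0.25 (SE), adjusted p = 0.658). Tll2, a tolloid-like proteinase, had a log2 fold change of -0.90 ± 0.53 at about 1 CPM or less.

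Of 13 tested genes of collagen turnover 3 were higher and none lower at an unadjusted p under 0.05, with a median of 0.089. Timp1, an inhibitor of matrix metalloproteinases, was read at 0.197, 0.216 and 0.418 CPM in AAV-GFP and 0.587, 0.522 and 1.71 CPM in AAV-RBM20, and Ctsk, a collagen-cleaving cathepsin, at 2.46, 2.68 and 4.69 CPM in AAV-GFP and 6.10, 4.75 and 6.59 CPM in AAV-RBM20, both without overlap between groups. Mmp14, a membrane-bound collagenase, was read at 11.2, 11.05 and 16.5 CPM in AAV-GFP and 18.6, 15.9 and 18.3 CPM in AAV-RBM20. Their log2 fold changes were 1.73 ± 0.58, 0.82 ± 0.28 and 0.45 ± 0.18 (SE), each with an adjusted p of 0.618 in edgeR. Timp1 lay under the filter minimum of 0.225 CPM in AAV-GFP replicates 1 and 2 and over it in every AAV-RBM20 library. It thus passed the filter through the group where it was high, and its place among the 3 is description only. Mmp8 was not tested.

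Of 8 tested collagen receptors 2 were higher and none lower at an unadjusted p under 0.05, with a median of 0.25. Lair1, an inhibitory receptor of immune cells, was read at 0.566, 0.383 and 0.931 CPM in AAV-GFP and 1.69, 0.796 and 3.58 CPM in AAV-RBM20 (log2 fold change 1.68 ± 0.57 (SE), adjusted p = 0.618). Itga11, the integrin chain that binds fibrillar collagen on fibroblasts, was read at 6.05, 5.51 and 6.63 CPM in AAV-GFP and 7.81, 7.39 and 9.18 CPM in AAV-RBM20, without overlap between groups (log2 fold change 0.42 ± 0.16 (SE), adjusted p = 0.618). Itga10 was read at 1.33, 1.32 and 0.418 CPM in AAV-GFP and 1.94, 1.14 and 1.54 CPM in AAV-RBM20 (log2 fold change 0.61 ± 0.45 (SE), adjusted p = 0.708). Gp6, the platelet receptor, was not tested.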

How the data were processed

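Ribosomal RNA-depleted, stranded libraries were made from pulverised tibialis anterior muscle. The deposited table holds unnormalised counts per Ensembl gene, which the authors made with HISAT2 on mm10 and HTSeq, per the labels. Versions, annotation release and HTSeq strand setting are not given in the sources used here. A second deposited table of DESeq2-normalised values was not used. Total counts were 41400132 to 54226618 per library, and SDs and SEs reflect the spread between these libraries only.

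Symbols and positions came from GENCODE M21 (GRCm38), which named 55141 of 55401 identifiers. Start windows came from RefSeq (GRCm38), of which 35 collagen genes had an entry. edgeR 4.0.16 in R 4.3.3 (filterByExpr, TMM, glmQLFit with robust estimation, glmQLFTest, no covariate) was fitted to all 17222 genes that passed, with Benjamini-Hochberg adjustment and a threshold of 0.05. SEs were taken as |log2 fold change| over the root of the F statistic. Two-sided exact permutation tests compared single values on log2(CPM + 0.5). Fits were tested on simulated data.

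Groups came from the treatment labels and replicate numbers from the titles. Deviations of same-numbered libraries correlated at 0.418, 0.201 and 0.484, all above 0.1. Libraries of one number were treated as pairs only in the fits with the replicate block and in the comparisons by number. The main edgeR fit, limma-voom, DESeq2 without the block and the permutation tests used no pairing. Differently numbered libraries correlated at -0.422 to 0.216, and AAV-GFP replicate 2 correlated more with AAV-RBM20 replicate 1 (0.216) than with its own number. Numbers are shared in the titles only, since the count table numbers the AAV-RBM20 samples 4 to 6, and their meaning is not labelled, so the pairing is uncertain. Replicates of a group differed by 15.1 to 545 in chi-square per degree of freedom, so none was a second copy of another.

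Values in every library are given for the tested members with the 12 smallest p-values, the 2 of each class with the highest level, the 4 junctional genes and partner chains, and for up to 3 genes of the smallest p in each of 4 pathway lists. Serpinh1 and the single markers were added after their values were seen. Members, classes and lists were chosen with earlier results of these data known. Alternatives were DESeq2 1.42.0, limma-voom (limma 3.58.1), edgeR's newer method, other size factors and filters, the replicate block, removal of mitochondrial, Ttn and Rbm20 counts, and fits without each library or without both numbered 3.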

Additional observations from a re-analysis of the deposited data

How the results depend on the processing

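No gene passed the adjusted threshold in edgeR with all 6 libraries, with upper quartile factors or DESeq2 size factors, with the CPM filter, the newer quasi-likelihood method or without mitochondrial, Ttn and Rbm20 counts, or in limma-voom. The count was 8 with no filter, 25 with the replicate block, 75 in DESeq2, 513 in DESeq2 with the replicate block and 690 without both libraries numbered 3, and 0 in all 6 fits that left out 1 library. For collagen genes it was 2 in DESeq2, 4 in DESeq2 with the replicate block and 12 without both libraries numbered 3, and 0 to 0 with 1 library left out. Collagen genes at an unadjusted p under 0.05 went from 6 to 12 with the replicate block, 13 in DESeq2 with the block, 18 without both libraries numbered 3 and 2 to 14 with 1 library left out. Groups that did not overlap numbered 4, 4 to 16 with 1 library left out (up to 40.0% of members, against 21.8% to 32.2% of all genes) and 24 without both libraries numbered 3 (60.0%, against 49.0%), where fewer libraries leave less to overlap.

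The median log2 fold change of all collagen genes kept its sign, at 0.33 to 0.45 with 1 library left out. That of the fibrillar class was 0.67 without both libraries numbered 3 and 0.37 to 0.69 with 1 left out, and that of the microfibrillar class 0.64 and -0.069 to 0.44. The basement membrane and junctional medians ranged over 0.099 to 0.44 and 0.14 to 0.64 with 1 left out. Of 474 single-gene values over 17 alternatives, 431 kept direction and call, 18 passed the threshold and 25 changed sign, in 9 of 28 genes, and the cause was not tested. Col4a4 turned to 0.010 with upper quartile factors and 0.21 without both libraries numbered 3, and Col12a1 to -0.59 in the latter. Col19a1 was -0.11 in DESeq2 with the replicate block, -0.20 in limma-voom and -0.066 with the edgeR block, and Col22a1 -0.19, -0.097 and -0.10, and -0.60 without both libraries numbered 3. Leaving out 1 library gave -0.24 to 0.34 for Col4a3, -0.24 to 0.11 for Col4a4, -0.070 to 0.44 for Col6a1, -0.069 to 0.37 for Col6a2, -0.19 to 0.52 for Col7a1, -0.014 to 1.73 for Col8a2, -0.55 to 1.61 for Col12a1, -0.56 to 0.71 for Col19a1 and -0.29 to 0.90 for Col22a1. The replicate block changed no other call of a collagen gene. With the longest transcript as length, 8 of 30 levels and 5 chain ratios moved by more than 1 SD. Of the tested members, Col17a1, Col9a3 and Col25a1 had the fewest counts, with 59, 88 and 94 in all.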
